A study of Mus musculus with 4 samples.

Results

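T cells with NK receptors were 225 cells that carried transcripts of the T cell receptor complex together with transcripts of receptors better known from natural killer (NK) cells. They came from 7172 kept cell barcodes of 3 brain tumor libraries, and 8572 barcodes were kept over all 4 libraries of the study. They were chosen by their unique molecular identifiers (UMIs, counts of single RNA molecules), among barcodes that held 200 genes or more and no more than 10% of UMIs from mitochondria: at least 2 UMIs of Cd3d, Cd3e and Cd3g together, at least 2 UMIs of Klrb1c, Ncr1, Klre1 and Klri2 together, no Foxp3 UMI and at most 1 UMI of C1qa, C1qb and C1qc. The library of anti-CTLA-4 with CD4 depletion (the depletion library) held 81 of these members, the anti-CTLA-4 library 91 and the IgG library 53. Levels of these chosen genes are given as a description and support nothing.

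The study injected glioma-005 cells, a mouse glioma line, into the hippocampus of C57BL/6J mice that were 8 to 12 weeks old. From day 7 the mice received, by intraperitoneal injection, anti-CTLA-4 (clone 9H10) together with CD4 depletion by anti-CD4 (clone GK1.5), anti-CTLA-4 alone, or rat IgG2a (clone LTF-2) as isotype control; the dosing was not given in the sources used here. A healthy brain library is the fourth. Each tumor library pooled 3 tumors at day 35, so every group is 1 library with no replicate, and no p-value can be given. After perfusion, microglia, myeloid cells, CD3+ T cells and the remaining CD11b- CD3- immune cells were sorted and mixed again in equal parts, so the number of T cells against NK cells was set by the sort and is not compared.

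Most T cells read antigen through the T cell receptor and its CD3 chains, with CD4 or CD8 as coreceptor. NK cells lack that receptor and weigh signals from activating receptors, which work through adaptor proteins such as FcεRIγ (Fcer1g) and DAP12 (Tyrobp), against signals from inhibitory receptors such as the Ly49 family (Klra genes) and CD94 with NKG2A (Klrd1 with Klrc1). T cells with such receptors are known from several lineages, among them antigen-experienced CD8 T cells, γδ T cells and NKT cells. The constant segments of the T cell receptor chains were not used here, so αβ and γδ cells could not be told apart by them.

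Klre1, a lectin-like receptor that pairs with Klri1 or Klri2, carried the choice. It was found in 91.4% of the depletion members, 94.5% of the anti-CTLA-4 members and 84.9% of the IgG members. Klrb1c, which encodes NK1.1, was found in 33.3%, 28.6% and 54.7%, and Ncr1, which encodes the activating receptor NKp46, in 17 of 81, 11 of 91 and 15 of 53 members of the same libraries. Klri2 was found in 12.3%, 42.9% and 13.2%. Klre1 was the only 1 of the 4 receptor genes seen in 54.3% of depletion members, 36.3% of anti-CTLA-4 members and 32.1% of IgG members. Klrb1c, Ncr1 or both were found in 40.7%, 33.0% and 62.3% of members, so that most IgG members and a minority of the others held either transcript. Just inside the limit, 26, 19 and 11 members had exactly 2 receptor UMIs. Just outside it, 65, 33 and 19 T cells had 1. At the Cd3 limit, 3, 4 and 0 members had exactly 2 Cd3 UMIs, and 12, 12 and 10 barcodes with 2 or more receptor UMIs had 1.

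Gzma, the gene of granzyme A and the fifth marker given for these cells, was absent from most of them. It was found in 11.1% of the depletion members, 31.9% of the anti-CTLA-4 members and 28.3% of the IgG members. In NK cells it was found in 92.1%, 94.5% and 92.2%, in T cells without any of the 4 receptor transcripts in 6.27%, 12.6% and 8.29%, and in B cells, which should lack it, in 2.31%, 12.7% and 5.77%. With every cell thinned to 2000 UMIs, the shares were 8.97%, 26.4% and 22.6% in members, against 89.9%, 93.4% and 89.6% in NK cells and 0.926%, 4.85% and 0% (0 of 50 cells) in B cells. The label is kept for the cells because the rule defines it, but Gzma does not mark them as it marks NK cells.

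Promoter sequence is shown for 3 genes: Klre1, which carried the choice, Ncr1 and Fcer1g. Ncr1 and Fcer1g were each higher in members without a coreceptor transcript than in members with CD8 transcripts, and Ncr1 is also a gene of the rule. Each run holds 250 bases before and 50 bases after the start of transcription, from RefSeq on GRCm38.p6, in lower case. Capitals mark the core letters of RUNX motifs, TGTGGT or its reverse complement ACCACA, searched on both strands. RUNX factors are known regulators of T cell and NK cell genes. The stretches are chr6:129577963-129578262 on the plus strand, chr7:4337465-4337764 on the plus strand and chr1:171234300-171234599 on the minus strand.
Klre1: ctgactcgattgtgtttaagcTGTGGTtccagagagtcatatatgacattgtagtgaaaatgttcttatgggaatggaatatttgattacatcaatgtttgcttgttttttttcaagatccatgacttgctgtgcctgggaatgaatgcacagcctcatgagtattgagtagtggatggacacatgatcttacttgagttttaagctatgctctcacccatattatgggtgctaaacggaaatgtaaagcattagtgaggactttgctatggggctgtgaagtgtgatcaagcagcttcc
Ncr1: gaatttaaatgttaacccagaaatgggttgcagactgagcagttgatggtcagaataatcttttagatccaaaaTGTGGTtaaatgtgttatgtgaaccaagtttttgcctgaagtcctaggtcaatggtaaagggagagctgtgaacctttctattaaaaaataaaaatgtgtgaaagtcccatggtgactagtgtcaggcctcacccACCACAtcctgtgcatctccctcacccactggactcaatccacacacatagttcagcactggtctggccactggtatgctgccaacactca
Fcer1g: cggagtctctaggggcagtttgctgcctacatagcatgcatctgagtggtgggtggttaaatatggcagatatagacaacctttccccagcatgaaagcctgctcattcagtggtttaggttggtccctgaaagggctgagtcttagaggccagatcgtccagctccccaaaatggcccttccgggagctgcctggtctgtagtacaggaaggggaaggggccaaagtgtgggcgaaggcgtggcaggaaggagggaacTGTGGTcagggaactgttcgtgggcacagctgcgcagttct
Of the 36 NK receptor and adaptor genes listed, 27 had a promoter entry, and 12 of these genes (44.4%) held the motif in any of their promoters. Over all genes it was 5113 of 27025 (18.9%). Counted by single promoters, it stood in 5506 of 32851 (16.8%). A match is a description of this window, not a shown binding site.

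The libraries held 21471565 UMIs with depletion, 13428840 with anti-CTLA-4 and 9952379 with IgG. Members were the deeper cells, with a median of 5578, 7373 and 7583 UMIs in the depletion, anti-CTLA-4 and IgG libraries, against 3236, 4929 and 4726 in NK cells, 3892, 5199 and 5595 in receptor-negative T cells and 2863, 4802 and 4943 in B cells. The libraries shared 9, 6 and 1 barcodes with the others, of which 1 depletion barcode was a member. Scrublet, which scores barcodes as possible doublets, put 5 of 81 depletion members, 11 of 91 anti-CTLA-4 members and 6 of 53 IgG members in the top 5% of its scores, that is 6.17%, 12.1% and 11.3%, against 1.48%, 1.71% and 1.56% of NK cells and 1.75%, 4.2% and 3.31% of receptor-negative T cells. With tied scores included, the top scores held 5.16%, 6.58% and 6.09% of all kept barcodes of these libraries. Of the anti-CTLA-4 members without a coreceptor, 31.2% were among the top scores, and of the 13 IgG members with CD8 transcripts 23.1%. With the top 5% of scores left out of every class, 114 genes were higher and 79 lower in coreceptor-negative against CD8 members, of which 80 and 58 were among the 106 and 84 given below, and with anti-CTLA-4 against IgG 77 were higher and 21 lower, of which 57 and 13 were among the 70 and 24 given below. Leaving out these scores does not remove every doublet. All intervals below are 95% counting intervals; UMIs of 1 cell go together, so they cover counting error only and say nothing of the spread between mice.

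Members were a smaller share of the T cells in the depletion library than in either other tumor library. They were 81 of 944 Foxp3-negative Cd3 cells with depletion, 8.58% (exact Clopper-Pearson interval 6.87 to 10.6). In the anti-CTLA-4 library they were 91 of 410, 22.2% (18.3 to 26.5), and in the IgG library 53 of 253, 20.9% (16.1 to 26.5). The interval with depletion lies below both others, which overlap each other. The rule needs UMIs, so depth enters the shares: with every cell thinned to 2000 UMIs first and the Foxp3 and C1q limits kept at full depth, they were 4.13% (2.87 to 5.72), 9.72% (6.97 to 13.1) and 8.07% (4.85 to 12.5), and the intervals of the depletion and IgG libraries then overlap. At 1 library a group, no share can be called different between treatments.

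The coreceptor transcripts of the members differed between the libraries, and this split was chosen after values had been seen. Cd8a or Cd8b1 without Cd4 was found in 47 of 81 depletion members, 58.0% (46.5 to 68.9), in 41 of 91 anti-CTLA-4 members, 45.1% (34.6 to 55.8), and in 13 of 53 IgG members, 24.5% (13.8 to 38.3). None of the 3 coreceptor genes was found in 34, 32 and 35 members, that is 42.0%, 35.2% and 66.0%. The T cells without any of the 4 receptor transcripts differed between the libraries too. CD8 transcripts without Cd4 were found in 68.3%, 25.9% and 25.4% of them, and no coreceptor transcript in 29.8%, 37.1% and 37.6%. The CD8 share of members with IgG was thus near that of the other T cells, and with depletion it was lower. Cd4 without CD8 transcripts was seen in 17 anti-CTLA-4 members (18.7%) and 5 IgG members (9.43%). No depletion member held a Cd4 UMI (interval 0 to 4.45%), which limits the cells with a UMI and not the cells that express the gene. Over the 3 libraries, 101 members had no coreceptor transcript, 101 had CD8 transcripts, 22 had Cd4 and 1 had both.

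Among T cells with CD8 transcripts, members made up 7.46% (5.53 to 9.80) with depletion, 32.8% (24.7 to 41.8) with anti-CTLA-4 and 20% (11.1 to 31.8) with IgG. The share was highest in the anti-CTLA-4 library also after thinning, at 16.3% (9.82 to 24.9) against 6.67% (1.40 to 18.3) in the IgG library, though these intervals overlap, and 2.82% (1.55 to 4.69) in the depletion library. The depletion library's 630 Cd3 cells with CD8 transcripts outnumber the 125 and 65 of the anti-CTLA-4 and IgG libraries, in a sorted mix. Among T cells without a coreceptor transcript, members were 11.4% (8.0 to 15.5), 21.2% (15 to 28.6) and 31.0% (22.6 to 40.4) in the depletion, anti-CTLA-4 and IgG libraries, and 6.25% (3.86 to 9.49), 8.80% (5.38 to 13.4) and 9.70% (5.27 to 16) after thinning.

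**Figure D1:**
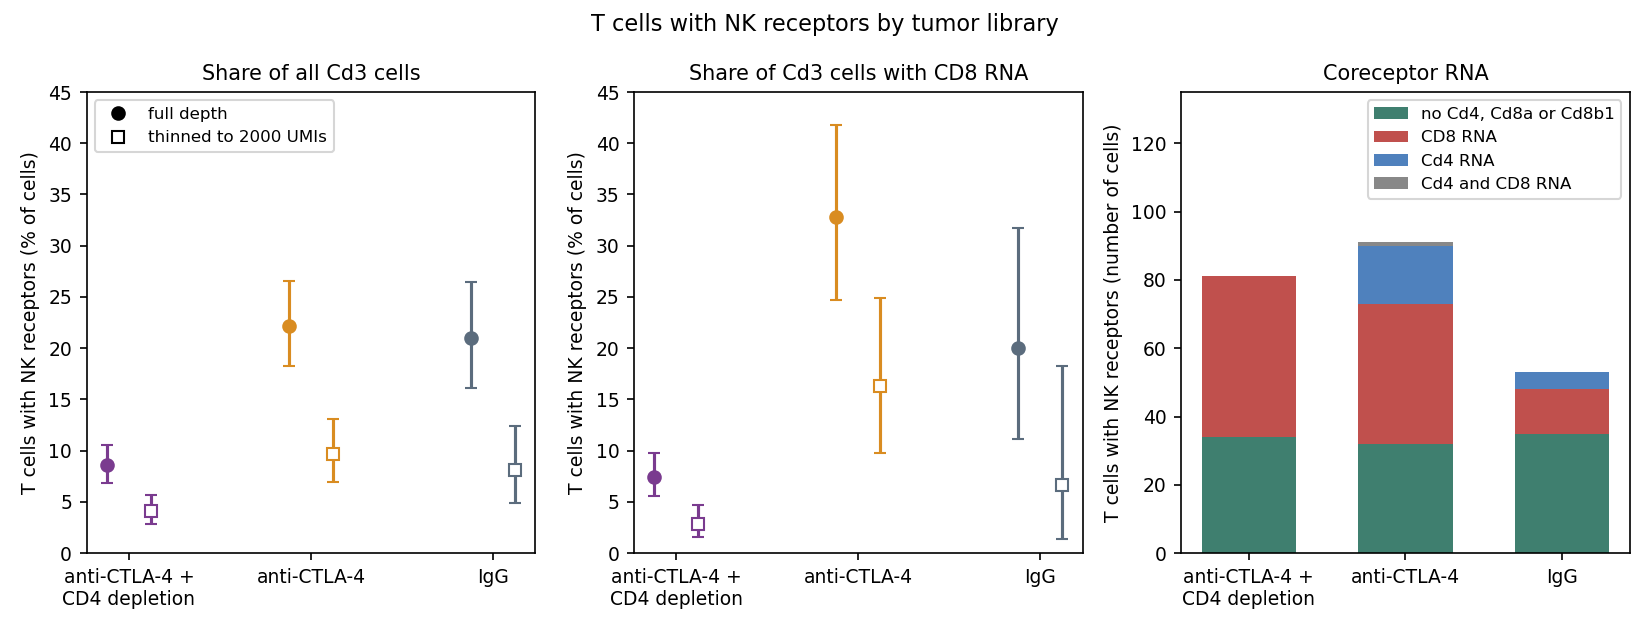
Share of T cells with NK receptors among all Foxp3-negative Cd3 cells (left) and among those with CD8 transcripts (middle), in percent, by tumor library; circles are full depth, squares cells thinned to 2000 UMIs, and bars exact 95% binomial counting intervals. Right, the number of such cells by coreceptor transcripts; the depletion library has the lowest shares, 8.58% and 7.46%, and no cell with Cd4, and the IgG library has most cells without a coreceptor transcript, 35 of 53.

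Members without a coreceptor transcript and members with CD8 transcripts differed in NK receptor, chemokine and checkpoint receptor genes. Coreceptor-negative members carried the adaptor and Ly49 genes of NK cells and the chemokine gene Xcl1. CD8 members carried Pdcd1, Lag3, Havcr2, Ccl3 and Ccl4 instead. Coreceptor-negative members had a median of 10, 14 and 16 Cd3 UMIs in the depletion, anti-CTLA-4 and IgG libraries, against 21, 50 and 40 in CD8 members. The coreceptor-negative member with most Fcer1g and Tyrobp UMIs in each library, 34, 88 and 111, had 4, 4 and 7 Cd3 UMIs. The part of NK cells with a few Cd3 UMIs in this class was not tested. Genes were set side by side as UMIs per 1000000 UMIs of the cells summed (CPM). A gene counted as higher or lower when the mean CPM of the libraries differed at least 2-fold, in the same direction in each library, with at least 50 UMIs in all and a UMI in at least 10% of the cells of the higher side. Folds are ratios of CPM, and log2 ratios are of CPM plus 5, which makes them smaller for genes of low level. Of 3450 genes with enough UMIs, 106 were higher in the coreceptor-negative members (3.07%) and 84 were lower (2.43%). That these genes go the same way in each library is set by the limits and is not a result. With each library left out in turn, 54 to 70 of the 106 and 36 to 53 of the 84 were still past them.

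Fcer1g stood at 1261, 1954 and 1379 CPM in coreceptor-negative members of the depletion, anti-CTLA-4 and IgG libraries, against 287, 307 and 206 CPM in CD8 members, 5.75-fold higher in the mean. Tyrobp stood at 750, 1458 and 817 CPM, against 262, 79.4 and 31.7 CPM, 8.10-fold higher. In the depletion library 1 CD8 member held 47 of the 86 Tyrobp UMIs of its class; without the highest cell of each class and library the levels were 639, 1316 and 639 CPM in coreceptor-negative members, against 124, 43.7 and 18.5 CPM in CD8 members, 13.9-fold higher. Without the depletion library the log2 ratio was 4.24 in place of 2.97, and without the anti-CTLA-4 library 2.38. For either gene the library levels of the classes do not overlap, but how many of all tested genes separate in this way was not counted. Single cells did overlap. Their Fcer1g and Tyrobp UMIs ran from 0 to 34, 88 and 111 in coreceptor-negative members of the 3 libraries, and from 0 to 78, 29 and 9 in CD8 members. Both transcripts together were found in 67.6%, 65.6% and 68.6% of coreceptor-negative members, against 17.0%, 14.6% and 15.4% of CD8 members. In NK cells the shares were 96.6%, 99.3% and 98.4%, in receptor-negative T cells 3.51%, 2.80% and 2.76%, and in B cells, taken as background, 6.15%, 4.82% and 1.92%. Thinned to 2000 UMIs, Fcer1g was found in 75.0%, 81.2% and 82.9% of coreceptor-negative members, against 26.1%, 36.6% and 30.8% of CD8 members, with B cells at 13.0%, 7.27% and 12.0%.

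**Figure D2:**
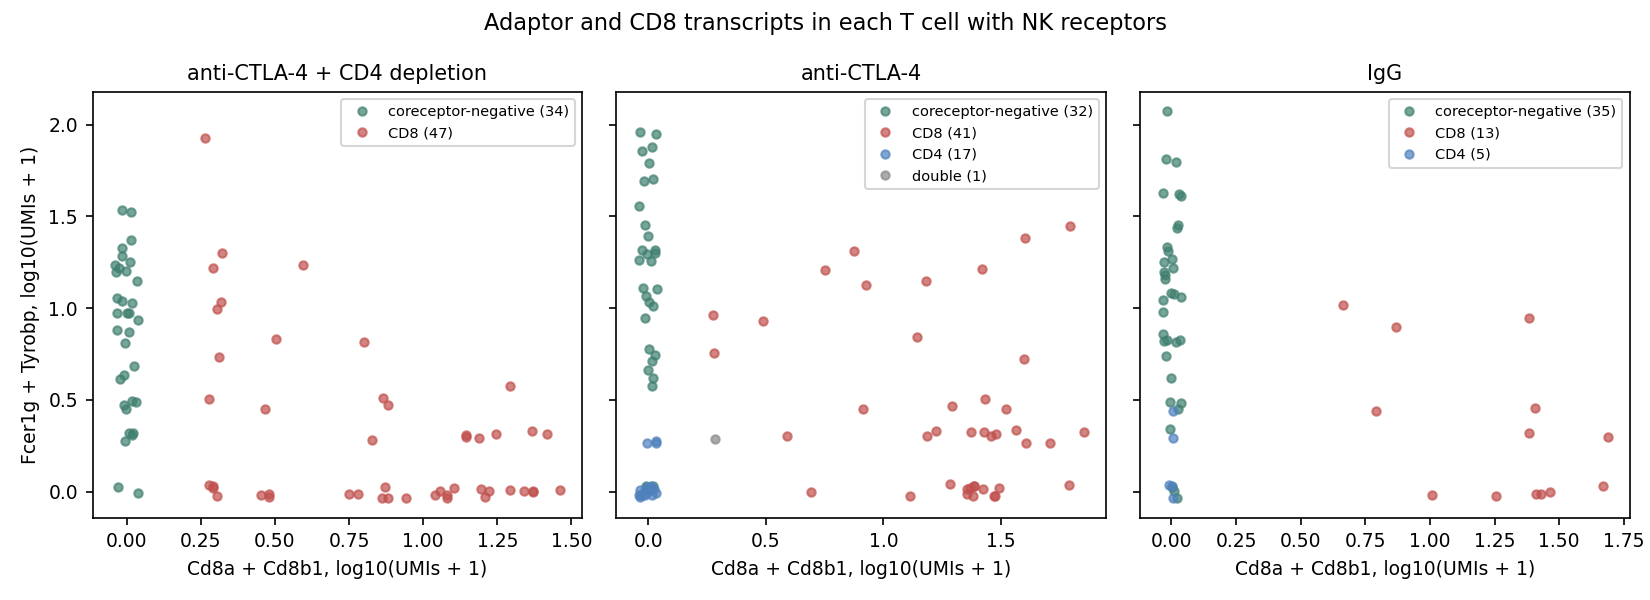
Each point is 1 T cell with NK receptors; the x axis gives its Cd8a and Cd8b1 UMIs and the y axis its Fcer1g and Tyrobp UMIs, both as log10 of the UMIs plus 1, with a small random shift so that points at the same value show. Coreceptor-negative cells have a median of 8, 15 and 11 adaptor UMIs in the depletion, anti-CTLA-4 and IgG libraries, and CD8 cells a median of 0, 1 and 1, with single CD8 cells as high as 78 UMIs.

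Of 14 activating NK receptors and adaptors with enough UMIs, 7 were higher in coreceptor-negative members and none lower, with a median log2 ratio of 1.12 against 0.02 over all genes tested. Besides the adaptors these were Klrk1 (NKG2D), Klrc2, Cd244, Klrb1a and Klrb1f. Of 8 inhibitory receptors, 4 were higher and none lower, with a median of 1.22. All 4 were Ly49 genes. Klra1 stood at 454, 357 and 262 CPM in coreceptor-negative members of the 3 libraries, against 88.5, 39.7 and 47.5 CPM in CD8 members. Klra7 stood at 435, 419 and 352 CPM, against 244, 57.3 and 182 CPM. The chosen receptor genes split as well: Klrb1c was found in 58.8%, 62.5% and 71.4% of coreceptor-negative members, against 14.9%, 14.6% and 23.1% of CD8 members, while Klre1 was found in 80% or more of either in each library.

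The chemokine genes went opposite ways. Xcl1, whose product draws cross-presenting dendritic cells, stood at 1577, 986 and 1686 CPM in coreceptor-negative members, against 723, 326 and 515 CPM in CD8 members, 2.72-fold higher. With depletion 1 coreceptor-negative member held 154 of the 250 Xcl1 UMIs. Without the highest cell of each class and library the levels were 642, 807 and 1091 CPM, against 626, 224 and 296 CPM, 2.22-fold higher. Almost no difference was then left in the depletion library. Ccl4, an inflammatory chemokine, stood at 6.31, 62.4 and 17.2 CPM, against 281, 333 and 1458 CPM, 24.1-fold lower. The IgG level of the CD8 members rested on 1 cell, which held 160 of 184 UMIs: without the highest cell of each class and library, coreceptor-negative members stood at 0, 43.5 and 7.30 CPM, against 211, 232 and 209 CPM, 12.8-fold lower. Without the IgG library its log2 ratio was -2.99 in place of -4.37, and without the anti-CTLA-4 library -5.70. Ccl3 had 1 UMI over all coreceptor-negative members, against 101 UMIs in CD8 members. Ifng was 2.28-fold lower, at a mean of 42.8 CPM against 97.4 CPM.

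Of 10 checkpoint and activation receptors with enough UMIs, 5 were lower in coreceptor-negative members and 1 was higher, with a median log2 ratio of -0.90. Pdcd1, the gene of PD-1, stood at 0, 26.8 and 31.0 CPM in the coreceptor-negative members of the 3 libraries, against 275, 271 and 412 CPM in CD8 members, 16.6-fold lower. Lag3 stood at 0, 66.9 and 31.0 CPM, against 140, 315 and 285 CPM. Havcr2, the gene of TIM-3, had 1 UMI in all coreceptor-negative members, against 53 in CD8 members; Ctla4 and Icos were the others that were lower. Cd7 was the 1 that was higher, at 555, 905 and 686 CPM against 119, 148 and 404 CPM.

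Of 12 T cell signalling genes, 4 were lower in coreceptor-negative members and none higher, with a median log2 ratio of -0.27 against 0.02 over all genes tested: Lat, Cd5, Cd6 and Themis, a gene needed for thymocyte selection. Themis had 2 UMIs in all coreceptor-negative members, against 75 in CD8 members. The Cd3g level, although used by the rule, was 2.22-fold lower too. Bcl11b, a transcription factor that keeps T cell identity, was not past the limit in either direction. Of the 14 transcription factors measured, Eomes, Lef1, Klf2 and Gata3 were higher and Tox and Irf8 lower. Homing genes split, with S1pr1, Cxcr3 and Cd69 among those higher and Cxcr6 and Cx3cr1 lower. S1pr1, the receptor for leaving tissue, stood at 221, 71.4 and 79.3 CPM in coreceptor-negative members of the 3 libraries, against 30.5, 30.9 and 31.7 CPM in CD8 members. Gzmk, found in CD8 members at a mean of 49.1 CPM, had no UMI in any coreceptor-negative member, at least 3.45-fold lower if 3 UMIs per library are taken as the floor. Without the highest cell of each class and library, a check added after values had been seen, Irf8 was 1.38-fold lower, under the limit, and Cd5, Cd6, Ctla4, Klrb1a and Klrb1f kept a ratio of at least 2 but not the limits on UMIs, cells or libraries.

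γδ and innate-like T cell genes were scarce in both kinds of member. Of the 9 in the table, none reached 50 UMIs over both kinds. Maf, a transcription factor shared by γδ and helper T cells, had 9, 9 and 5 UMIs in coreceptor-negative members of the 3 libraries, against 3, 4 and 0 UMIs in CD8 members. Zbtb16, the gene of the NKT cell factor PLZF, had 2, 1 and 0 UMIs in coreceptor-negative members of the 3 libraries and none in CD8 members, and Blk had none in either. A 3′ count misses low transcripts, so these counts do not show that such cells are absent.

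Against NK cells, members had more T cell signalling and checkpoint receptor transcripts and fewer transcripts of NK receptors and granule proteins. NK cells here are the 623 barcodes with at least 2 UMIs of the same 4 receptor genes and no Cd3 UMI. Of 6935 genes with enough UMIs, 165 were higher in members (2.38%) and 273 were lower (3.94%). Without the anti-CTLA-4 library, 87 were higher and 313 lower. Cd3 genes and the receptor genes are set by the rule. When ribosomal protein and mitochondrial genes were left out of the totals, 250 were higher and 188 lower, and with median-of-ratios scaling, which moved the median of all genes by 0.13 on the log2 scale, 219 and 204.

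Of 12 T cell signalling genes, 6 were higher in members and none lower. Bcl11b averaged 121 CPM in members against 3.90 CPM in NK cells, 31.1-fold higher. Cd5, Cd6 and Themis had 86, 86 and 105 UMIs in members and none in NK cells. Lat was 5.47-fold higher and Cd28 2.39-fold. Cd8a had 841 UMIs in members, against 2 in NK cells.

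Of 11 checkpoint and activation receptors, 7 were higher in members and none lower, with a median log2 ratio of 1.5 against -0.15 over all genes. Pdcd1 stood at 185, 226 and 182 CPM in members of the depletion, anti-CTLA-4 and IgG libraries, against 5.54, 0 and 0 CPM in NK cells. Lag3 averaged 196 CPM against 13.7 CPM and Ctla4 44.4 CPM against 3.34 CPM. Cxcr6, a receptor of resident T cells, stood at 234, 621 and 453 CPM, against 9.70, 73.0 and 63.2 CPM, 8.97-fold higher. Il7r, the interleukin 7 receptor, was 7.16-fold higher and Ikzf2, the gene of Helios, averaged 349 CPM against 33.4 CPM.

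Of 17 activating NK receptors and adaptors, 10 were lower in members and 2, Cd226 and Crtam, were higher. Tyrobp averaged 471 CPM in members against 2577 CPM in NK cells, and Fcer1g 757 CPM against 3138 CPM. Of 11 inhibitory receptors, 5 were lower and 2, Klra6 and Cd160, were higher. Klra8, the gene of the activating receptor Ly49H, averaged 23.0 CPM against 569 CPM, 24.8-fold lower, and Klra4, the gene of Ly49D, 45.7 CPM against 784 CPM.

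Of 14 cytotoxic granule and death ligand genes, 5 were lower in members and 1 was higher. Gzma stood at 432, 2021 and 1358 CPM in members of the depletion, anti-CTLA-4 and IgG libraries, against 10215, 14110 and 12337 CPM in NK cells, 9.62-fold lower. Gzmb, granzyme B, stood at 125, 937 and 339 CPM, against 936, 1971 and 1312 CPM, 3.01-fold lower. Prf1, perforin, averaged 44.0 CPM against 243 CPM. The death ligand gene Tnfsf10 (TRAIL) was the 1 that was higher, at 83.0 CPM against 29.2 CPM. Eomes, a factor of NK cells, was 4.62-fold lower. Of the lower genes named by size, Cma1 had 3 UMIs in members against 485 in NK cells, and Serpinb9b, Khdc1a, Klrb1b and Mef2c were between 9.92-fold and 63.2-fold lower.

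**Figure D3:**
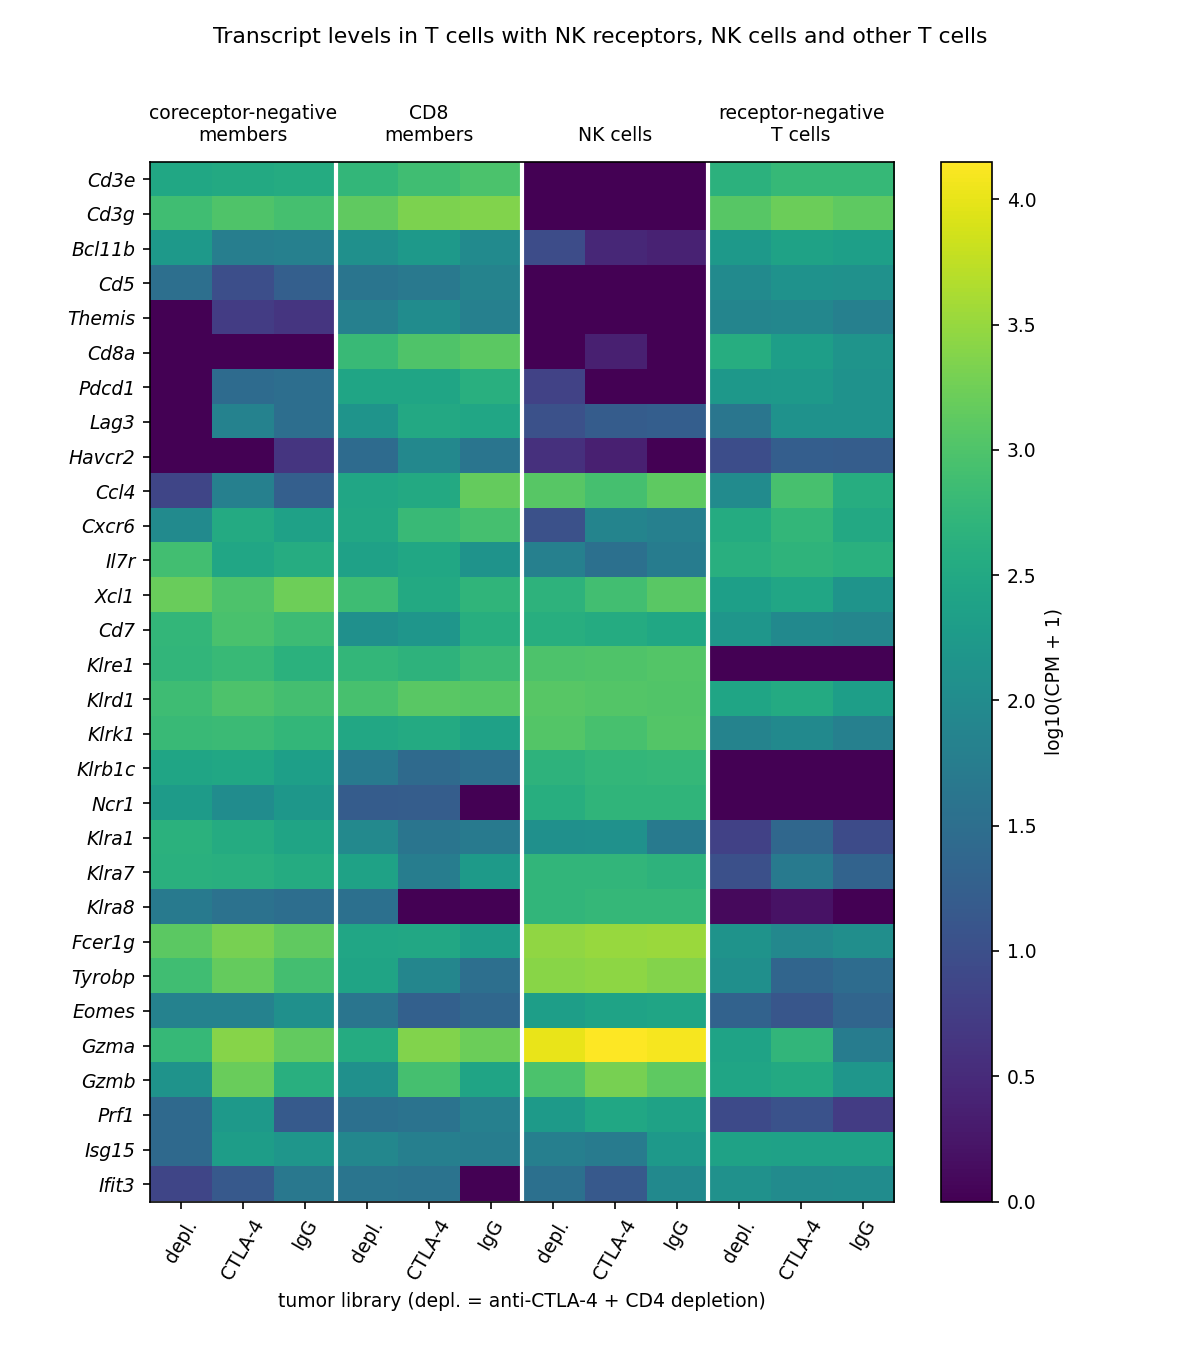
Level of 30 genes as log10 of the CPM plus 1 (colour), in coreceptor-negative members, CD8 members, NK cells and receptor-negative T cells, with the 3 tumor libraries side by side in each. Fcer1g, Tyrobp and the Klra genes are brighter in coreceptor-negative than in CD8 members; Pdcd1, Lag3 and Ccl4 are brighter in CD8 members, and Gzma is brightest in NK cells, at 10215 to 14110 CPM.

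Against T cells without any UMI of the 4 receptor genes, members had more transcripts of other NK receptors and fewer of interferon response genes. These 1265 receptor-negative T cells were chosen with the same Cd3, Foxp3 and C1q limits. Of 8169 genes, 108 were higher in members (1.32%) and 94 were lower (1.15%). Without the depletion library, 151 were lower and 115 higher. The 4 receptor genes, at 0 in the receptor-negative cells by the rule, are among those higher.

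Of 15 activating receptors and adaptors, 9 were higher in members and none lower, with a median log2 ratio of 1.80 against -0.06 over all genes. Of 10 inhibitory receptors, 6 were higher and none lower. Klrd1, the gene of CD94, stood at 821, 1198 and 892 CPM in members of the depletion, anti-CTLA-4 and IgG libraries, against 274, 339 and 212 CPM in receptor-negative T cells. Klrc1, the gene of NKG2A, averaged 218 CPM against 49.2 CPM and Klrk1 415 CPM against 75.0 CPM. Klra9, Klra1 and Klra7 were 48.2-fold, 13.8-fold and 9.46-fold higher. Of 15 cytotoxic genes, Gzma, Prf1, Nkg7 and Fasl were higher and none lower: Gzma averaged 1270 CPM against 282 CPM, and Prf1 44.0 CPM against 7.45 CPM. Xcl1 stood at 1002, 481 and 1212 CPM, against 221, 288 and 140 CPM.

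Of 12 interferon response genes, 7 were lower in members and none higher, with a median log2 ratio of -1.08. Ifit3 averaged 28.9 CPM in members against 111 CPM in receptor-negative T cells, Isg15 91.2 CPM against 240 CPM and Ly6a 385 CPM against 1141 CPM. The costimulatory genes Tnfrsf4 (OX40) and Icos and the inhibitory receptor gene Ctla4 were lower too, 5.73-fold, 3.37-fold and 3.73-fold. Tmem176a and Tmem176b, paralogous membrane proteins, were 12.3-fold and 8.62-fold lower, and Serpinb1a had 2 UMIs in members against 425. Cells with Cd4 and no CD8 transcripts were 0%, 18.7% and 9.43% of members in the depletion, anti-CTLA-4 and IgG libraries, against 1.75%, 35.3% and 35.9% of receptor-negative T cells.

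With both sides held to cells with CD8 transcripts, a comparison added after values had been seen, members had more checkpoint receptors than the other CD8 T cells. Of 6366 genes, 112 were higher in CD8 members (1.76%) and 155 were lower (2.43%). Without the anti-CTLA-4 library the counts were 175 and 277. Of 11 checkpoint and activation receptors, 5 were higher and none lower. Pdcd1 stood at 275, 271 and 412 CPM in CD8 members of the depletion, anti-CTLA-4 and IgG libraries, against 172, 110 and 73.9 CPM in CD8 receptor-negative T cells. Lag3 stood at 140, 315 and 285 CPM, against 53.2, 73.6 and 32.1 CPM, 4.66-fold higher. Tnfrsf9 (4-1BB), Havcr2 and Entpd1 were 6.59-fold, 4.16-fold and 2.03-fold higher.

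Several genes known from resting and circulating T cells were lower in CD8 members. Tcf7, Lef1, Klf2 and Id3 were lower among 17 transcription factors, and Irf8 was higher. Klf2 stood at 165, 75.0 and 23.8 CPM in CD8 members, against 410, 217 and 382 CPM in CD8 receptor-negative T cells. S1pr1 stood at 30.5, 30.9 and 31.7 CPM, against 151, 89.1 and 138 CPM. Of 12 interferon genes, 7 were lower: Ifit3 stood at 39.7, 37.5 and 0 CPM, against 146, 134 and 129 CPM. The NK receptor genes Klrc1, Klrd1, Klrk1, Klrc2, Cd244, Cd160 and Klra1 were higher, between 2.44-fold and 4.65-fold, and so was Fcer1g. Gzma was 2.14-fold higher and Gzmk 3.25-fold lower. Without the highest cell of each class and library, Gzma, Entpd1 and Irf8 were 1.84-fold, 1.86-fold and 1.57-fold higher, under the limit.

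Ranked by the ratio with 5 CPM added to both sides, Ifitm1, an interferon-inducible membrane protein, came first outside the rule genes. It stood at 354, 2757 and 119 CPM in CD8 members of the depletion, anti-CTLA-4 and IgG libraries, against 108, 211 and 0 CPM in CD8 receptor-negative T cells, 10.1-fold higher. Without the anti-CTLA-4 library its log2 ratio was 2.04 in place of 3.28. Styk1, a pseudokinase gene known from NK cells, had 50 UMIs in CD8 members against 2, and Cx3cr1, the fractalkine receptor, was 6.95-fold higher.

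Between the anti-CTLA-4 and IgG libraries, members with anti-CTLA-4 had more granzyme B and Ifitm1 transcripts. Prf1 also passed the limits as higher and Xcl1 and Eomes as lower, but not once the highest cell of each library was left out. Of 2955 genes with enough UMIs, 70 were higher with anti-CTLA-4 (2.37%) and 24 lower (0.812%), by the same limits on single libraries. Ifitm1 stood at 1842 CPM with anti-CTLA-4 against 267 CPM with IgG, 6.90-fold higher (counting interval 5.73 to 8.37). It was found in 36 anti-CTLA-4 members and in 7 IgG members, and the cell with most held 219 of 1460 UMIs with anti-CTLA-4 and 52 of 122 with IgG. In coreceptor-negative members Ifitm1 stood at 370 CPM against 183 CPM and in CD8 members at 2757 CPM against 119 CPM. In NK cells it stood at 51.9 CPM with anti-CTLA-4 against 88.1 CPM with IgG.

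Of 13 cytotoxic genes, Gzmb and Prf1 were higher with anti-CTLA-4 and none was lower, with a median log2 ratio of 0.01 against 0.04 over all genes. Gzmb stood at 937 CPM against 339 CPM, 2.76-fold higher (2.32 to 3.31), and, without the highest cell of each library, at 653 CPM against 252 CPM. Prf1 stood at 70.6 CPM against 30.6 CPM, 2.31-fold higher (1.27 to 4.49). Prf1 stood at 174 CPM with anti-CTLA-4 against 13.8 CPM with IgG in coreceptor-negative members, and at 37.5 CPM against 63.4 CPM in CD8 members. These levels rest on few UMIs: 39 and 4 in coreceptor-negative members, and 17 and 8 in CD8 members. Without the highest cell of each class and library they were 81.8 CPM against 7.11 CPM, and 29.9 CPM against 27.0 CPM. An opposite direction in CD8 members is thus not shown. Gzmb was higher with anti-CTLA-4 in both kinds of member, at 1606 CPM against 407 CPM and at 845 CPM against 261 CPM. Single cells held 232 of the 360 and 181 of the 383 anti-CTLA-4 UMIs, and 29 of the 33 IgG UMIs in CD8 members. Without the highest cell of each class and library, Gzmb stood at 597 CPM against 270 CPM and at 479 CPM against 33.3 CPM. In NK cells Gzmb stood at 1971 CPM with anti-CTLA-4 against 1312 CPM with IgG. Of 11 checkpoint and activation receptors, Lag3, Tnfrsf4 and Icos were higher, with Lag3 at 336 CPM against 157 CPM, 2.13-fold (1.64 to 2.80). Within CD8 members Lag3 stood at 315 CPM with anti-CTLA-4 against 285 CPM with IgG, with overlapping counting intervals, and CD8 members were 45.1% against 24.5% of members. CD8 members held 143 of the 266 Lag3 UMIs with anti-CTLA-4 and 36 of the 72 with IgG, and coreceptor-negative members 15 and 9. The rest lay in members with Cd4 transcripts. Those with Cd4 and no CD8 transcripts were 18.7% against 9.43% of members. Among homing genes, Itgae, Cd69 and Cx3cr1 were higher. Itgae, the CD103 chain of resident cells, stood at 63.1 CPM against 13.1 CPM, but its log2 ratio was -0.66 with every cell thinned to 1000 UMIs.

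Xcl1 stood at 481 CPM with anti-CTLA-4 against 1212 CPM with IgG, 2.52-fold lower (2.21 to 2.88). With IgG 1 cell held 181 of the 554 UMIs, and without the highest cell of each library Xcl1 stood at 425 CPM against 830 CPM, 1.95-fold lower, which is under the 2-fold limit. Eomes stood at 29.0 CPM against 83.1 CPM, 2.86-fold lower (1.66 to 5.04), found in 17.6% against 39.6% of members. Both are genes of the coreceptor-negative members, which were 35.2% of members with anti-CTLA-4 and 66.0% with IgG. Within coreceptor-negative members the log2 ratios were -0.77 for Xcl1 and -0.81 for Eomes, and within CD8 members -0.65 and -0.35, all under 2-fold. Outside the rule genes, none of 11 activating receptors and adaptors was past the limit, and of 8 inhibitory receptors Klra3 was higher and Klra6 lower. Of the rule genes, Ncr1 stood at 37.8 CPM against 98.4 CPM, 2.60-fold lower, and Klri2 was 7.71-fold higher. Of the other genes named by size, Tff1 was higher, and Cd9, Gadd45g, Pdlim1, Psen2, Klhdc2 and Exosc2 were between 2.68-fold and 3.31-fold lower. Klhdc2 turned to a log2 ratio of 1.03 when only CD8 members were compared. For Hist1h2ap, a histone gene, 1 cell held 68.9% of the UMIs with anti-CTLA-4, and for Mt1, a metallothionein gene, 61.3%. Without the highest cell of each library, 80 genes were higher and 12 lower with anti-CTLA-4, of which 52 and 12 were among the 70 and 24. Besides Xcl1, Cd69 was then under 2-fold, and Prf1, Itgae, Klra3, Tff1, Mt1, Eomes, Klra6, Gadd45g, Pdlim1 and Psen2 kept a ratio of at least 2 but not the limits on UMIs or cells. Within CD8 members alone, 14 of the 70 genes were higher and none of the 24 lower past the same limits, and within coreceptor-negative members alone 6 of the 70 and 2 of the 24.

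Between the depletion and anti-CTLA-4 libraries, members with CD4 depletion added had fewer transcripts of granzymes and of some checkpoint receptors. This comparison shares the anti-CTLA-4 library with the last one. Of 2953 genes, 28 were higher with depletion (0.948%) and 99 lower (3.35%). With median-of-ratios scaling, which moved the median of all genes by 0.11 on the log2 scale, 44 were higher and 76 lower, and with ribosomal protein and mitochondrial genes left out of the totals 49 and 71. The median log2 ratio over all genes was -0.11.

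Of 14 cytotoxic genes, Gzma, Gzmb, Gzmk and Prf1 were lower with depletion and Serpinb6b higher, with a median log2 ratio of -0.49. Gzmb stood at 125 CPM with depletion against 937 CPM with anti-CTLA-4, 7.47-fold lower (5.75 to 9.87). In coreceptor-negative members it stood at 132 CPM against 1606 CPM, and in CD8 members at 122 CPM against 845 CPM. Without the highest cell of each class and library these were 94.2 CPM against 597 CPM, and 83.6 CPM against 479 CPM. In NK cells Gzmb stood at 936 CPM against 1971 CPM and in receptor-negative T cells at 270 CPM against 334 CPM. Gzma was 4.68-fold lower (4.05 to 5.43), at 432 CPM against 2021 CPM, found in 11.1% against 31.9% of members. Thinned to 2000 UMIs, the shares with Gzma were 8.97% and 26.4%.

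Of 11 checkpoint and activation receptors, Lag3, Havcr2, Ctla4 and Entpd1 were lower with depletion and none higher, with a median log2 ratio of -0.85. Lag3 stood at 94.6 CPM with depletion against 336 CPM with anti-CTLA-4, 3.55-fold lower (2.59 to 4.96). Of the 266 anti-CTLA-4 Lag3 UMIs, 143 lay in CD8 members and 15 in coreceptor-negative members. The rest lay in members with Cd4 transcripts, a kind not found with depletion. Within CD8 members, without the highest cell of each library, Lag3 stood at 121 CPM with depletion against 300 CPM, and Pdcd1 at 253 CPM against 245 CPM. Ifitm1 stood at 239 CPM against 1842 CPM, 7.72-fold lower. Among homing genes, Ccr2 and S1pr1 were higher and Itgae, Cxcr6 and Cx3cr1 lower. Cxcr6 stood at 234 CPM against 621 CPM. Of 14 transcription factors, Klf2 was higher, at 292 CPM against 122 CPM, and Tbx21, Bhlhe40 and Irf8 were lower. Xcl1 was higher, at 1002 CPM against 481 CPM, 2.08-fold (1.82 to 2.39). With depletion 1 cell held 154 of the 487 UMIs, and without the highest cell of each library it stood at 698 CPM against 425 CPM, 1.64-fold, under the 2-fold limit. Within coreceptor-negative members it stood at 1577 CPM against 986 CPM. The same check there gave 642 CPM against 807 CPM, the opposite direction, so no rise within this class is claimed. Cd4 had no UMI with depletion, against 63 UMIs with anti-CTLA-4, at least 12.9-fold lower with 3 UMIs in the library as the floor. Spp1, Tff1, Furin and Mt1 were lower as well. Without the highest cell of each library, Ccr2 was 1.27-fold higher and Prf1 and Cx3cr1 were 1.63-fold and 1.84-fold lower, all under the limit, and Gzmk, Entpd1, Itgae, Tff1 and Mt1 no longer had the UMIs or cells for a call. Within CD8 members alone, 7 of the 28 genes were higher and 29 of the 99 lower past the same limits, and within coreceptor-negative members alone 4 of the 28 and 10 of the 99.

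The 2 genes highest with depletion rested on 1 cell each. Lyz2, the lysozyme gene of myeloid cells, had 219 UMIs in depletion members against 30 in anti-CTLA-4 members, and 204 of the 219, 93.2%, lay in 1 cell. Apoe had 114 UMIs against 38, and 85 of them, 74.6%, lay in 1 cell. Without those cells the levels were 31.8 CPM and 61.4 CPM with depletion, against 37.8 CPM and 47.9 CPM with anti-CTLA-4. Of 10 monocyte and macrophage markers, 9 had a UMI in depletion members, with a summed level of 1055 CPM, against 7 markers and 279 CPM in anti-CTLA-4 members and 8 markers and 300 CPM in IgG members. In the depletion library 1 cell held 377 of the 513 UMIs of these markers, and without the highest cell of each library the sums were 288, 270 and 274 CPM. Their part in the other results was not tested. Of the other marker lists, 1 to 4 of 8 B cell markers had a UMI in members, summed at 8.23, 10.1 and 17.5 CPM in the 3 libraries, and Ms4a1 and Pax5 were at 0 in each.

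**Figure D4:**
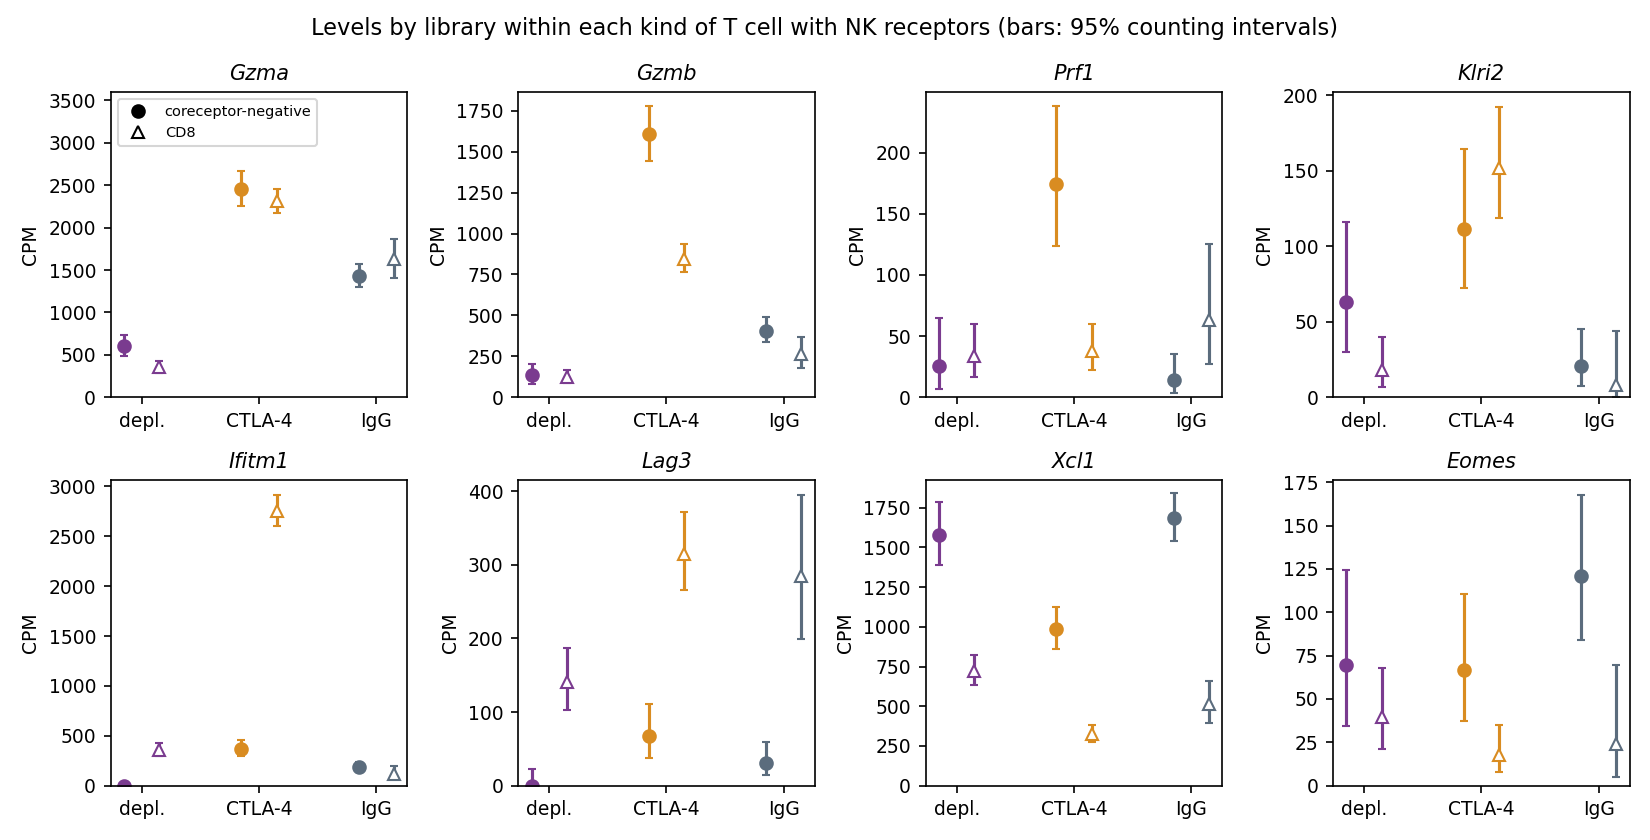
CPM of 8 genes in coreceptor-negative members (filled circles) and CD8 members (open triangles) of the depletion (depl.), anti-CTLA-4 (CTLA-4) and IgG libraries, with 1 library a group; bars are exact 95% Poisson counting intervals. Gzmb is highest with anti-CTLA-4 in both kinds, at 1606 and 845 CPM, where 1 cell of each kind held 232 of 360 and 181 of 383 UMIs. Ifitm1 is highest in anti-CTLA-4 CD8 members, at 2757 CPM. Xcl1 is higher in coreceptor-negative members in each library, but with depletion 1 such cell held 154 of 250 UMIs.

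The 22 members with Cd4 and no CD8 transcripts were few. In the 17 anti-CTLA-4 cells, Klrb1c and Ncr1 were not found (0 of 17 cells with a UMI, interval 0 to 19.5%), and Klre1 was found in 94.1%. Fcer1g and Tyrobp together were found in none of the 17 and in 1 of the 5 IgG cells. Cd40lg, the helper ligand, was found in 70.6% of the 17 anti-CTLA-4 cells, Tnfrsf4 in 88.2% and Maf in 82.4%, and each of the 3 genes was found in 3 of the 5 IgG cells. Ifitm1 stood at 1175 CPM in the anti-CTLA-4 cells and 1320 CPM in the IgG cells. In the IgG library, 1 of the 5 cells held 52 of the 122 Ifitm1 UMIs of all members, so the IgG level rests mostly on 1 cell. Gzmb had no UMI in the 17 cells and 4 UMIs in the 5. Tff1, a trefoil factor, had 25 of its 52 anti-CTLA-4 UMIs in the 17 Cd4 cells.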

How the data were processed

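The authors deposited unnormalized UMI counts, 1 value for each gene in each barcode, made with Cell Ranger 3.1.0, per the file headers, on mm10, per the submitters' processing notes. How reads were aligned and which annotation was used were not given in the sources used here. The table has 27998 genes; T cell receptor constant chains and Klra13-ps were not analysed here. Gene positions are from GENCODE vM21 and promoters from RefSeq GRCm38.p6.

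The limits on barcodes were 200 genes or more and no more than 10% of UMIs from mitochondria. Library totals ran from 9952379 to 21471565 UMIs in the tumor libraries. UMIs were summed per library and cell class, divided by the total and given as CPM, with exact Poisson, Clopper-Pearson or conditional binomial 95% intervals. No doublets were removed; Scrublet scores (scanpy 1.11.5, expected rate 0.05) served to leave out the top 5% as an alternative. Thinning used 2000 UMIs per cell for shares and 1000 for levels. Python 3.11.15 was used, and the comparison script was tested on simulated data.

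Genes were named by rule: in each comparison the 8 highest and the 8 lowest among those past the limits, by log2 ratio of CPM plus 5, without ribosomal, mitochondrial, hemoglobin, immunoglobulin, unnamed model and sex-linked genes, and from each gene list the members of highest level or largest ratio. Members, lists and the motif were chosen with earlier results of these data known. The coreceptor split and the comparisons of coreceptor-negative with CD8 members, and of CD8 members with CD8 receptor-negative T cells, were added after values had been seen. With 1 library a group no test was made. Alternatives were other scalings, limits, thinning, receptor thresholds, left-out libraries and, added after seeing the data, the highest cell of each gene left out.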

Additional observations from a re-analysis of the deposited data

Results flagged for a closer look

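In the healthy brain library, which enters no comparison, 4 barcodes passed the rule for T cells with NK receptors. Members and NK cells differed in opposite directions past the size limits for 6 genes, a difference that was not tested and rests on 1 library a group. With anti-CTLA-4 against IgG, Ly6a had a log2 ratio of 1.21 in members (705 CPM against 302 CPM) and -1.47 in NK cells (63.4 CPM against 185 CPM). AA467197 had 1.18 in members and -0.99 in NK cells. Mob2 had -1.02 in members (35.3 CPM against 76.6 CPM) and 0.88 in NK cells (33.9 CPM against 16.2 CPM). Cd74 had 0.93 in members (79.5 CPM against 39.4 CPM) and -1.12 in NK cells (190 CPM against 419 CPM). With depletion against anti-CTLA-4, Apoe had 2.18 in members and -1.13 in NK cells (98.4 CPM against 222 CPM). Lyz2 had 3.41 in members and -3.92 in NK cells (36.0 CPM against 616 CPM). For Apoe and Lyz2, 1 depletion member held 74.6% and 93.2% of the UMIs.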

How the results depend on the processing

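Counts are given as genes higher and lower. With each cell thinned to 1000 UMIs they were 9 and 1 (anti-CTLA-4 against IgG), 3 and 10 (depletion against anti-CTLA-4), 43 and 109 (members against NK cells), 31 and 39 (members against receptor-negative T cells), 12 and 16 (coreceptor-negative against CD8 members) and 45 and 77 (CD8 members against CD8 receptor-negative T cells). In the same order, a ratio of at least 1.5 gave 236 and 125, 113 and 361, 358 and 791, 241 and 305, 350 and 238, and 359 and 446. At least 20 UMIs with no minimum share gave 313 and 152, 131 and 411, 364 and 705, 239 and 510, 329 and 218, and 265 and 544. With the highest cell of each gene left out of each class and library, an alternative chosen after seeing the data, the counts in that order were 80 and 12, 19 and 106, 141 and 377, 91 and 142, 100 and 77, and 73 and 326; the smaller class loses the larger share of its cells by this step. In that setting Klra8 and Klra4 were 84.9-fold and 37.3-fold lower in members than in NK cells, and Tmem176a 24.3-fold lower than in receptor-negative T cells. With the top Scrublet scores left out, the counts were 77 and 21, 25 and 128, 170 and 292, 110 and 95, 114 and 79, and 119 and 190. Within CD8 members alone, the counts were 66 and 11 for anti-CTLA-4 against IgG and 22 and 49 for depletion against anti-CTLA-4, and within coreceptor-negative members alone 15 and 12, and 12 and 34. Median-of-ratios scaling gave 44 and 76 for depletion against anti-CTLA-4 and 219 and 204 against NK cells; without ribosomal and mitochondrial genes in the totals the counts were 49 and 71, and 250 and 188. With each library left out in turn, 87 to 170 genes were higher and 313 to 362 lower than in NK cells, 103 to 115 and 106 to 151 than in receptor-negative T cells, 76 to 117 and 63 to 94 for coreceptor-negative against CD8 members, and 87 to 175 and 143 to 277 for CD8 members against CD8 receptor-negative T cells. The member share of Cd3 cells was 4.13%, 9.72% and 8.07% in thinned cells of the depletion, anti-CTLA-4 and IgG libraries, and 5.83%, 17.6% and 16.6% with at least 3 receptor UMIs.

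The settings with a ratio of at least 1.5, and with at least 20 UMIs and no minimum share, change only the limits for a call. No log2 ratio can move in them, and the tally that follows includes them among the values that stayed. Of 1216 values for 96 pairs of named gene and comparison, 1074 moved by no more than the counting error, 136 moved further and 6 changed sign. With anti-CTLA-4 against IgG these were Itgae, at -0.66 after thinning, and Klhdc2, at 1.03 within CD8 members. With depletion against anti-CTLA-4 they were Lyz2, at -0.048 without the highest cell, -0.27 without the top Scrublet scores and -0.28 with at least 3 receptor UMIs, and Ctsz, at -0.14 after thinning. The cause was not tested. No paired analysis was possible because each group has 1 library. Single libraries limit every treatment comparison, and levels of the 13 CD8 members with IgG rest on few cells.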
